A study of Oryza sativa with 12 samples.

Results

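The 7 loci described here carry out the late synthesis, the activation and the inactivation of gibberellin (GA) in rice: KAO, GA3ox1, GA3ox2/D18, GA2ox1, GA2ox3, GA2ox6 and EUI1. They were taken by locus identifier from a table of 34126 loci. Each had 1 transcript, so that the members were 7 of 40722 transcripts, and all had a row in the table. A filter on low counts kept 6 of the 7 (31643 transcripts in all), and GA3ox1 failed it. GA 20-oxidases such as Prl5 itself were not members and are given only as neighbouring steps of the pathway.

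GA is made from ent-kaurene, which is oxidised to ent-kaurenoic acid and then, by KAO, to the first GA of the pathway. GA 20-oxidases and then GA 3-oxidases turn the inactive precursors into the bioactive hormone. GA 2-oxidases hydroxylate GAs into forms without activity, and EUI1 is a cytochrome P450 that inactivates them by epoxidation. In rice, loss of D18 gives dwarf plants, whereas loss of EUI1 gives a strongly elongated uppermost internode. GA promotes elongation of the stem and the rachis, while GA 2-oxidases limit the hormone near the shoot apex.

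RNA was sequenced from young panicles at the 2 mm stage of 4 lines, with 3 libraries per line and 12 in all. Koshihikari, a japonica cultivar, carried its own alleles of Prl5 (GA20ox4, chromosome 5) and Pbl6 (APO1, chromosome 6) and was the control. NIL-Prl5ST-1 carried the segment of the donor ST-1 at Prl5, NIL-Pbl6ST-1 that at Pbl6, and NIL-Prl5ST-1 + Pbl6ST-1 had both, in a Koshihikari background made by repeated backcrossing and marker selection. The plants were grown in a paddy field, with no treatment named. Each segment was represented by near-isogenic lines only, so an allele cannot be told apart from the other donor DNA around it. The labels number the libraries without saying which plants they came from, and p-values therefore measure the spread between these libraries, which may be partly technical.

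The libraries held 16041196 to 31760529 counted reads. Values below are normalised read counts, that is counts scaled to library size (cpm), and are compared between lines but not between genes, because transcript lengths were not used. Koshihikari replicate 2 and NIL-Prl5ST-1 replicate 2 stood apart from the other libraries of their lines. Their chi-square per degree of freedom against the other 2 libraries was 12.4 to 19.9, against 3.39 to 8.48 for the pairs that held neither. All 7 young panicle markers were detected in each library, from APO1 at 0.890 to 2.23 cpm to OsMADS15 at 225 to 294 cpm. Leaf genes were also present. The summed level of 7 Rubisco small subunit transcripts was 4.50 to 6.76 cpm in Koshihikari, 5.30 to 7.43 cpm in NIL-Prl5ST-1, 3.23 to 3.38 cpm in NIL-Pbl6ST-1 and 2.65 to 4.20 cpm in NIL-Prl5ST-1 + Pbl6ST-1, none of the transcripts being at 0 throughout. That of 21 chlorophyll a/b-binding transcripts did not follow it, with 70.1 to 121, 95.6 to 127, 73.7 to 74.8 and 83.6 to 108 cpm in the same order, so that both lines with the Pbl6 segment lay within the range of Koshihikari. The part of leaf RNA in the results below was not tested.

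The lines were compared to ask whether the Prl5 and Pbl6 segments went with different levels of the enzymes that surround GA20ox4 in the pathway. No member passed an adjusted p of 0.05 in any of the 6 comparisons (edgeR quasi-likelihood test, Benjamini-Hochberg adjustment over 31643 transcripts). The share of all tested transcripts that passed was 0.743% for NIL-Prl5ST-1 against Koshihikari, 8.49% for NIL-Pbl6ST-1 against Koshihikari and 2.16% for NIL-Prl5ST-1 + Pbl6ST-1 against Koshihikari. It was 0.777% for the line with both segments against NIL-Pbl6ST-1, 25.3% for that line against NIL-Prl5ST-1 and 3.93% for the interaction of the segments. These shares hung on single libraries: 235 transcripts passed in NIL-Prl5ST-1 against Koshihikari, and 63 without Koshihikari replicate 1 but 6574 without Koshihikari replicate 2. In the interaction 1243 passed, with 7 to 7579 as single libraries were left out. At an unadjusted P of 0.05, the minimum that the study used, 1 member of 6 passed in NIL-Prl5ST-1 against Koshihikari (KAO, lower; background 24.9% of transcripts in either direction). In NIL-Pbl6ST-1 it was 5 of 6, with GA3ox2/D18, GA2ox3 and GA2ox6 higher and GA2ox1 and KAO lower (25.3%). In NIL-Prl5ST-1 + Pbl6ST-1 it was 1 of 6, KAO, lower (13.8%). The line with both segments had 0 against NIL-Pbl6ST-1 (15.9%) and 2 against NIL-Prl5ST-1, GA2ox3 and GA2ox6, both higher (37.9%). In the interaction KAO and GA2ox1 passed, both positive (28.9%). The Wald test of DESeq2 called KAO in NIL-Prl5ST-1 against Koshihikari and in the interaction, and no member in the other 4 comparisons. It gave no adjusted p for GA3ox2/D18, GA2ox1, GA2ox6 and EUI1 in NIL-Prl5ST-1 against Koshihikari, so these could not be called there. A member without an adjusted p was counted as not called. Fewer cells of a type and less RNA per cell cannot be told apart in such whole-panicle samples.

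**Figure D1:**
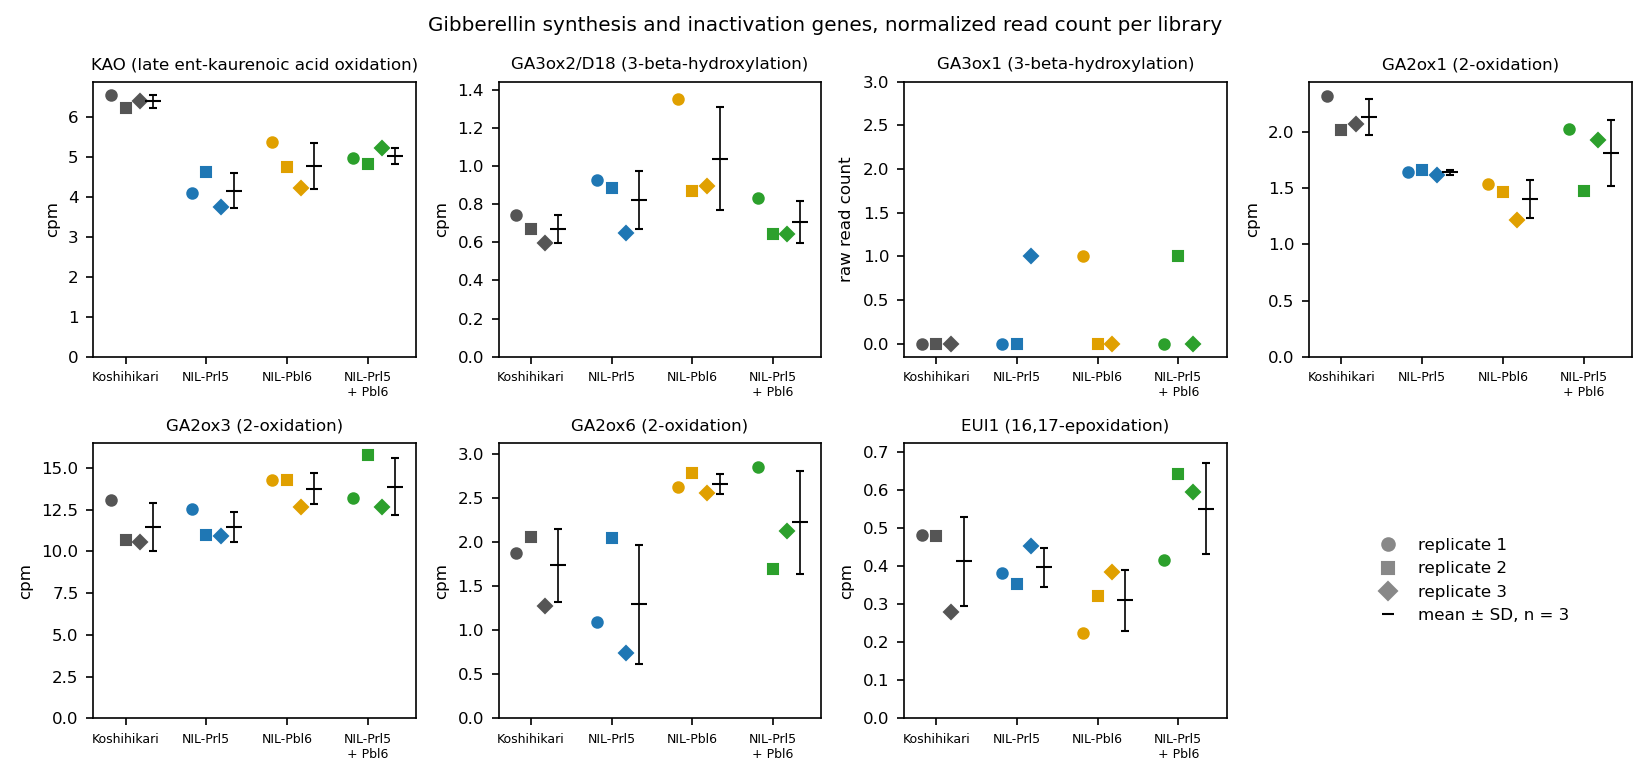
Normalised read count (cpm, vertical axis from 0) of each member in the 12 libraries, grouped by line on the horizontal axis, with the 3 replicates as circle, square and diamond and the mean ± SD as a bar; GA3ox1 is drawn as raw read counts without a mean. KAO lies below all 3 Koshihikari libraries in each of the 9 other libraries, and GA2ox6 spreads widest within NIL-Prl5ST-1. How common the KAO pattern is over all transcripts was not counted.

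KAO (Os06t0110000, chromosome 6, described in the table as similar to DWARF3) encodes ent-kaurenoic acid oxidase, the last step before the GAs proper. It stood at 6.55, 6.23 and 6.40 cpm in Koshihikari and at 4.10, 4.63 and 3.75 cpm in NIL-Prl5ST-1. NIL-Pbl6ST-1 had 5.37, 4.75 and 4.23 cpm, and NIL-Prl5ST-1 + Pbl6ST-1 had 4.99, 4.84 and 5.24 cpm. Every one of the 9 NIL libraries thus lay below the lowest Koshihikari library. The means were 6.39 ± 0.160, 4.16 ± 0.443, 4.78 ± 0.571 and 5.02 ± 0.203 cpm in the same order (SD, n = 3), from 66 to 161 reads per library. The 3 NILs overlapped with their neighbours in this order of means, apart from the gap to Koshihikari.

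In NIL-Prl5ST-1, KAO differed from Koshihikari by −0.62 on the log2 scale (SE 0.149, 95% interval −0.94 to −0.29, edgeR quasi-likelihood test, Benjamini-Hochberg adjusted p = 0.0668). The corresponding difference was −0.41 in NIL-Pbl6ST-1 (SE 0.139, edgeR adjusted p = 0.0899). It was −0.35 in NIL-Prl5ST-1 + Pbl6ST-1 (SE 0.140, edgeR adjusted p = 0.277). These comparisons share the Koshihikari libraries and are not independent of each other. The exact permutation test gave p = 0.1 in all 3, the smallest that 3 against 3 libraries can give. KAO is located on the chromosome of Pbl6, and whether it is within donor DNA was not tested.

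The KAO difference in NIL-Prl5ST-1 lay close to the threshold and crossed it under several settings. The edgeR adjusted p was 0.0205 without Koshihikari replicate 2, where 6574 transcripts passed. It was 0.0284 without NIL-Prl5ST-1 replicate 2, where 3568 passed. These are the libraries that stood apart. With both left out, a choice made after the data were seen, it was 0.00433 at −0.71 on the log2 scale, where 11646 transcripts passed in place of 235. Leaving out any other single library gave an adjusted p of 0.197 to 0.286, again with edgeR, at −0.62 to −0.54. The direction was kept under all 13 alternatives run for this comparison.

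**Figure D2:**
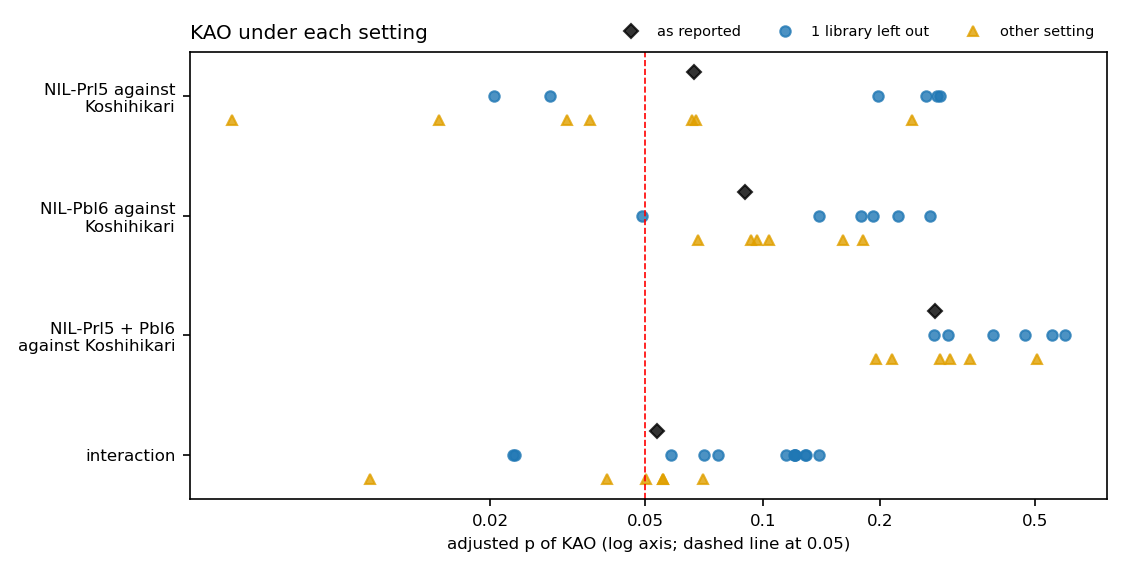
Adjusted p of KAO (horizontal log axis, dashed line at 0.05) in 4 comparisons, as reported (diamonds), with 1 library left out (circles) and under the other settings (triangles). The points of NIL-Prl5ST-1 against Koshihikari and of the interaction fall on both sides of the threshold, while all those of NIL-Prl5ST-1 + Pbl6ST-1 against Koshihikari lie above it.

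KAO was also the member nearest to the threshold in the interaction, the effect of the Prl5 segment in the Pbl6 background minus its effect in Koshihikari. That difference of differences was 0.68 (SE 0.193, 95% interval 0.27 to 1.08, edgeR adjusted p = 0.0536). The Prl5 segment alone went with −0.62, whereas its addition to NIL-Pbl6ST-1 went with 0.06 on the log2 scale (edgeR adjusted p = 0.889). The interaction passed the threshold without Koshihikari replicate 2 (edgeR adjusted p = 0.0232), without NIL-Prl5ST-1 replicate 2 (0.0229) and without both (0.00982). Over all transcripts, 7579, 5233 and 10143 passed in these settings, in place of 1243. KAO passed in 2 of the 12 fits that left out a single library, with an edgeR adjusted p of up to 0.139 in the others.

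GA3ox2, the product of the D18 locus (Os01t0177400, chromosome 1), makes the bioactive GAs of vegetative and reproductive shoots. Its values were 0.743, 0.671 and 0.596 cpm in Koshihikari and 0.929, 0.884 and 0.647 cpm in NIL-Prl5ST-1. They were 1.35, 0.868 and 0.897 cpm in NIL-Pbl6ST-1 and 0.832, 0.643 and 0.643 cpm in NIL-Prl5ST-1 + Pbl6ST-1. All 3 NIL-Pbl6ST-1 libraries lay above those of Koshihikari and of the line with both segments, with replicate 1 far above the other 2. The raw counts were only 13 to 36 reads per library, and counting error alone amounts to 20.9% to 25.5% of a line mean per library.

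The difference of GA3ox2/D18 between NIL-Pbl6ST-1 and Koshihikari was 0.66 on the log2 scale (SE 0.300, 95% interval 0.01 to 1.31, edgeR adjusted p = 0.193). In NIL-Prl5ST-1 it was 0.28 (95% interval −0.38 to 0.93), with overlapping libraries. In NIL-Prl5ST-1 + Pbl6ST-1 it was 0.06 (95% interval −0.62 to 0.74). Against NIL-Pbl6ST-1 the line with both segments stood at −0.60 (edgeR adjusted p = 0.370), and the interaction was −0.86 (SE 0.411, edgeR adjusted p = 0.175).

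GA3ox1 (Os05t0178100, chromosome 5), the other GA 3-oxidase of rice, is known from flowers and developing seeds. It had 3 reads in the whole series, 1 each in NIL-Prl5ST-1 replicate 3, NIL-Pbl6ST-1 replicate 1 and NIL-Prl5ST-1 + Pbl6ST-1 replicate 2. The other 9 libraries, all 3 of Koshihikari among them, had 0. For counting error only, the 95% interval reached 3.69 reads for a count of 0 and 5.57 reads for a count of 1. The floor was set at 3 reads, or 0.0971 to 0.192 cpm depending on the library. The levels in all 4 lines were at or under this floor, and no fold is given.

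The GA 2-oxidase members did not share a direction. GA2ox1 (Os05t0158600, chromosome 5), known from a ring at the base of leaf primordia around the shoot apex, had 2.32, 2.01 and 2.07 cpm in Koshihikari and 1.64, 1.66 and 1.62 cpm in NIL-Prl5ST-1. It had 1.54, 1.46 and 1.22 cpm in NIL-Pbl6ST-1 and 2.03, 1.47 and 1.93 cpm in NIL-Prl5ST-1 + Pbl6ST-1. Both lines with a single segment lay below Koshihikari in every library, and the line with both overlapped with it. The difference from Koshihikari was −0.58 in NIL-Pbl6ST-1 (SE 0.210, 95% interval −1.04 to −0.13, edgeR adjusted p = 0.105). In NIL-Prl5ST-1 it was −0.37 (SE 0.202, edgeR adjusted p = 0.263). In the line with both segments it was −0.25 (SE 0.221, edgeR adjusted p = 0.666), and the interaction was 0.71 (SE 0.285, edgeR adjusted p = 0.117).

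The next locus in number, Os05t0158700, has the same description as GA2ox1, and reads of near-identical copies may have been split between them, so the value of either is uncertain. Os05t0158700 had 2.66 ± 0.435 cpm in Koshihikari, 2.28 ± 0.0622 cpm in NIL-Prl5ST-1, 1.75 ± 0.278 cpm in NIL-Pbl6ST-1 and 2.39 ± 0.377 cpm in NIL-Prl5ST-1 + Pbl6ST-1 (SD, n = 3). Its difference between NIL-Pbl6ST-1 and Koshihikari was −0.63 (SE 0.215, edgeR adjusted p = 0.0898), and its interaction was 0.69 (edgeR adjusted p = 0.121).

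GA2ox3 (Os01t0757200, chromosome 1), which the table describes as similar to another GA 2-oxidase, had the most reads of any member, 198 to 418 per library. It stood at 13.1, 10.7 and 10.6 cpm in Koshihikari and 12.5, 10.96 and 10.9 cpm in NIL-Prl5ST-1. NIL-Pbl6ST-1 had 14.3, 14.3 and 12.7 cpm, and NIL-Prl5ST-1 + Pbl6ST-1 had 13.2, 15.8 and 12.7 cpm. The libraries with the Pbl6 segment lay above all those of NIL-Prl5ST-1 and above Koshihikari replicates 2 and 3, and overlapped with Koshihikari replicate 1. The difference from Koshihikari was 0.26 in NIL-Pbl6ST-1 (SE 0.120, edgeR adjusted p = 0.192) and 0.28 in the line with both segments (SE 0.134, edgeR adjusted p = 0.391). In NIL-Prl5ST-1 it was 0.00 with a 95% interval of −0.28 to 0.29, which leaves room for changes of up to about that size. Between the line with both segments and NIL-Prl5ST-1 it was 0.28 (SE 0.124, edgeR adjusted p = 0.105).

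GA2ox6 (Os04t0522500, chromosome 4), listed in the table only as an oxygenase of the same superfamily, is a GA 2-oxidase whose gain of function dwarfs rice plants. Its line means spanned a factor of 2.05, the widest of the 6 tested members. The libraries had 1.88, 2.06 and 1.27 cpm in Koshihikari and 1.09, 2.05 and 0.744 cpm in NIL-Prl5ST-1. They had 2.63, 2.79 and 2.56 cpm in NIL-Pbl6ST-1 and 2.86, 1.70 and 2.13 cpm in NIL-Prl5ST-1 + Pbl6ST-1. NIL-Pbl6ST-1 lay above Koshihikari and NIL-Prl5ST-1 in every library, while all other pairs of lines overlapped. The highest value of both Koshihikari and NIL-Prl5ST-1 was in replicate 2, the library that stood apart in its line.

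The difference of GA2ox6 between NIL-Pbl6ST-1 and Koshihikari was 0.62 on the log2 scale (SE 0.219, 95% interval 0.15 to 1.10, edgeR adjusted p = 0.0992). Without Koshihikari replicate 2 it was 0.76 (edgeR adjusted p = 0.0272), where 7326 of all transcripts passed in place of 2686. Without Koshihikari replicate 3 it was 0.43 (edgeR adjusted p = 0.281). It passed in 1 of 12 alternatives. In NIL-Prl5ST-1 it was −0.40 (SE 0.351, edgeR adjusted p = 0.491), and it ranged from −0.94 to −0.09 as single libraries were left out. Between the line with both segments and NIL-Prl5ST-1 it was 0.76 (SE 0.328, edgeR adjusted p = 0.104). It became 1.30 without NIL-Prl5ST-1 replicate 2 (edgeR adjusted p = 0.00529), where 11158 of all transcripts passed in place of 8021. Without NIL-Prl5ST-1 replicate 3 it was 0.44 (edgeR adjusted p = 0.382), and again 1 of 12 alternatives was past the threshold. The coefficient of variation within NIL-Prl5ST-1 was 52.2%, beside 17.2% from counting error alone. The interaction was 0.13 (SE 0.432), and its sign changed with the library left out.

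**Figure D3:**
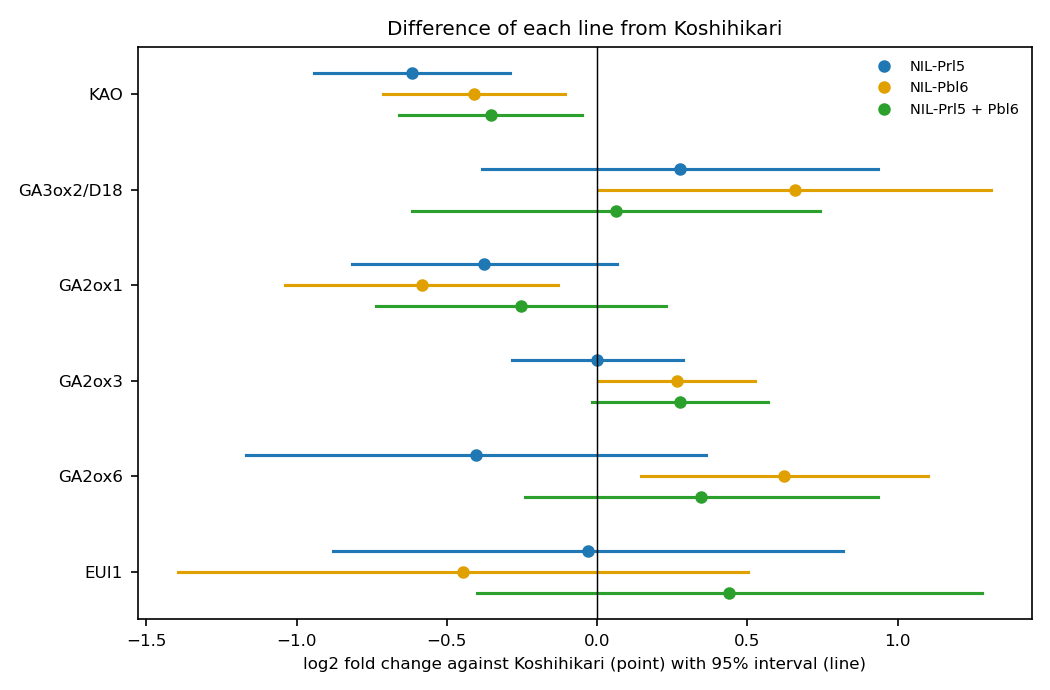
Log2 fold change of each tested member in the 3 NILs against Koshihikari (points) with its 95% interval (lines), horizontal axis in log2 units with 0 as no difference. The KAO intervals of all 3 lines lie below 0, GA2ox1 and GA2ox6 lie on opposite sides in NIL-Pbl6ST-1, and EUI1 has the widest intervals.

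EUI1 (Os05t0482400, chromosome 5, listed as a cytochrome P450) had 6 to 17 reads per library. Its levels were 0.481, 0.479 and 0.278 cpm in Koshihikari, 0.382, 0.354 and 0.453 cpm in NIL-Prl5ST-1, 0.225, 0.320 and 0.384 cpm in NIL-Pbl6ST-1 and 0.416, 0.643 and 0.593 cpm in NIL-Prl5ST-1 + Pbl6ST-1. The line with both segments, which had the highest mean, lay above NIL-Pbl6ST-1, which had the lowest, in every library. All neighbours in the order of means overlapped. The difference between the highest and the lowest line was 0.89 on the log2 scale (SE 0.425, 95% interval −0.01 to 1.79, edgeR adjusted p = 0.319). Against Koshihikari the differences were −0.03, −0.45 and 0.44 in NIL-Prl5ST-1, NIL-Pbl6ST-1 and the line with both segments, with 95% intervals of −0.88 to 0.82, −1.39 to 0.50 and −0.40 to 1.28. Changes of EUI1 smaller than about these intervals were not detectable at this depth.

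Read over the 6 tested members, the median log2 difference from Koshihikari was −0.20 in NIL-Prl5ST-1, −0.07 in NIL-Pbl6ST-1 and 0.17 in NIL-Prl5ST-1 + Pbl6ST-1, beside −0.01, 0.00 and −0.01 over all tested transcripts. The lines did not overlap in cpm for 2 members in NIL-Prl5ST-1, GA2ox1 and KAO, both lower (24.4% of all transcripts in either direction). In NIL-Pbl6ST-1 4 members did not overlap, GA3ox2/D18 and GA2ox6 higher and GA2ox1 and KAO lower (29.8%). In NIL-Prl5ST-1 + Pbl6ST-1 it was 1 member, KAO, lower (20.2%). Against NIL-Pbl6ST-1 the line with both segments did not overlap for 2 members, EUI1 higher and GA3ox2/D18 lower (20.2%), and against NIL-Prl5ST-1 for 2, GA2ox3 and KAO, both higher (41.5%). These are 6 members in 1 set of libraries, and the comparisons share lines with each other.

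The list of other pathway genes, chosen with earlier results of these data known, held 17 loci with 22 transcripts, of which 19 transcripts of 14 loci were tested. Of these 19, 5 belong to 3 loci that are not steps of synthesis or inactivation. They are the receptor GID1, the repressor SLR1 and Os02t0580300, which is described as a 14-3-3 protein. These 5 stay in the counts below, and none passed the adjusted threshold in any comparison. GA20ox3 was not analysed here. In NIL-Prl5ST-1 no transcript of the list passed the adjusted threshold, while 1 transcript was higher and 4 lower at an unadjusted P of 0.05, or 5 of 19 beside 24.9% of all transcripts. In NIL-Pbl6ST-1 1 transcript passed the adjusted threshold as higher and 3 as lower, or 4 of 19 beside 8.49%, and in NIL-Prl5ST-1 + Pbl6ST-1 none as higher and 3 as lower, or 3 of 19 beside 2.16% (edgeR). Both lower counts hold GA20ox1 as 2 transcripts with almost the same reads. The adjusted calls of that line against NIL-Pbl6ST-1 were 0 higher and 2 lower (background 0.777%), both of 1 locus, and against NIL-Prl5ST-1 1 higher and 4 lower from 3 loci (25.3%). In the interaction none passed (3.93%).

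Upstream of KAO, CPS1, which forms the precursor of ent-kaurene, had 2.53, 2.30 and 2.46 cpm in Koshihikari, 1.42, 1.41 and 1.68 cpm in NIL-Prl5ST-1, 1.01, 0.960 and 0.705 cpm in NIL-Pbl6ST-1 and 1.20, 0.869 and 1.29 cpm in NIL-Prl5ST-1 + Pbl6ST-1. As with KAO, the 9 NIL libraries lay below those of Koshihikari, a pattern whose share over all transcripts was not counted. CPS1 fell by 1.41 on the log2 scale in NIL-Pbl6ST-1 (SE 0.225, edgeR adjusted p = 0.00265) and by 1.14 in the line with both segments (SE 0.236, edgeR adjusted p = 0.0284). The latter call was lost when any 1 of 4 libraries was left out (edgeR adjusted p 0.0657 to 0.148). In NIL-Prl5ST-1 the difference was −0.68 (edgeR adjusted p = 0.0935). KS1, which makes ent-kaurene, stood at 11.3 ± 1.35 cpm in Koshihikari, 9.11 ± 0.432 in NIL-Prl5ST-1, 8.05 ± 1.18 in NIL-Pbl6ST-1 and 9.43 ± 1.99 in the line with both segments (SD, n = 3). Its edgeR adjusted p in NIL-Pbl6ST-1 was 0.0512 at −0.49. KO2/D35, ent-kaurene oxidase, had 10.7 ± 1.82, 12.5 ± 0.762, 9.19 ± 0.654 and 10.8 ± 0.947 cpm in the 4 lines, with no difference at an unadjusted P of 0.05.

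Between KAO and the GA 3-oxidases, GA20ox1 fell in both lines with the Pbl6 segment. Its first transcript had 46.9, 38.7 and 42.8 cpm in Koshihikari, 32.7, 35.1 and 33.1 cpm in NIL-Prl5ST-1, 22.8, 23.4 and 18.7 cpm in NIL-Pbl6ST-1 and 24.95, 20.9 and 18.6 cpm in NIL-Prl5ST-1 + Pbl6ST-1. It fell by 0.98 (SE 0.110, edgeR adjusted p = 0.000273) and by 0.999 (SE 0.121, edgeR adjusted p = 0.000963) on the log2 scale in the lines with the Pbl6 segment, and kept both calls whichever library was left out. In NIL-Prl5ST-1 the difference was −0.34 (SE 0.105, edgeR adjusted p = 0.0959). As with KAO and CPS1, every NIL library lay below those of Koshihikari. How common this pattern is over all transcripts was not counted, and these comparisons share the Koshihikari libraries. The second transcript had almost the same values, and whether reads were counted for both is not given in the sources used here. GA20ox4/Prl5 had 2.47 ± 0.274, 2.86 ± 0.144, 3.28 ± 0.518 and 3.89 ± 0.936 cpm in the 4 lines. Its difference from Koshihikari was 0.22 in NIL-Prl5ST-1 (edgeR adjusted p = 0.489) and 0.43 in NIL-Pbl6ST-1 (edgeR adjusted p = 0.181), both with overlapping libraries. In the line with both segments it was 0.65 (edgeR adjusted p = 0.183), with all libraries above Koshihikari (no overlap in 20.2% of all transcripts, in either direction). None of these differences passed the adjusted threshold. GA20ox2/SD1, the semi-dwarf gene, had 0.907 ± 0.349, 1.36 ± 0.0760, 1.58 ± 0.221 and 1.72 ± 0.0455 cpm for its first transcript, from 12 to 45 reads per library. Opposite to GA20ox1, every NIL library lay above those of Koshihikari, for both of its transcripts. The first differed from Koshihikari by 0.57 in NIL-Prl5ST-1 (edgeR adjusted p = 0.245) and 0.79 in NIL-Pbl6ST-1 (0.118). In the line with both segments the difference was 0.89 (edgeR adjusted p = 0.173). No transcript of GA20ox2/SD1 passed the adjusted threshold.

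**Figure D4:**
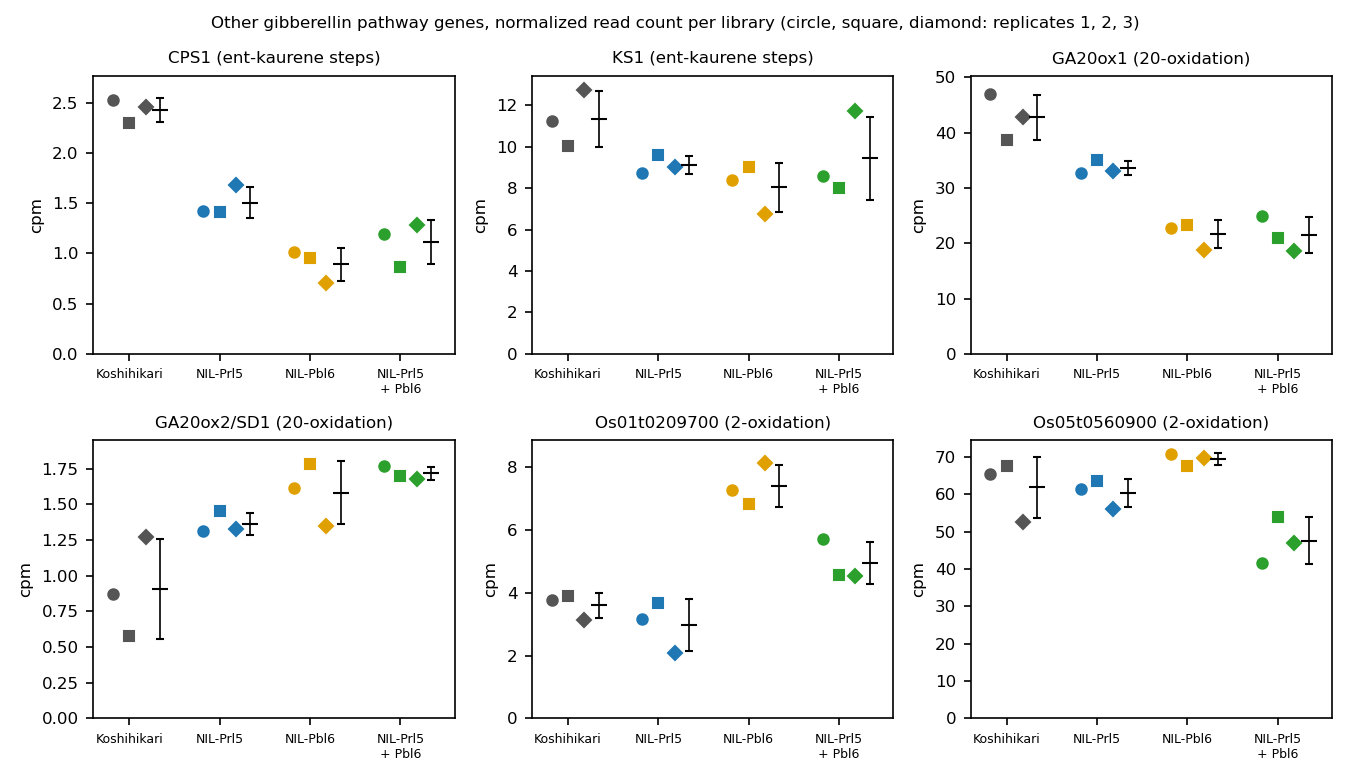
Normalised read count (cpm, vertical axes from 0) of 6 other genes of the pathway in each library, grouped by line, with mean ± SD (n = 3) as bars. CPS1 and GA20ox1 are lowest in the lines with the Pbl6 segment, Os01t0209700 is highest in NIL-Pbl6ST-1 and Os05t0560900 is lowest in the line with both segments.

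Of the further GA 2-oxidases, Os01t0209700 (similar to GA 2-oxidase 5) rose in NIL-Pbl6ST-1, and of the 11 transcripts of the list with a positive difference there it was the 1 that passed the adjusted threshold. It had 3.76, 3.88 and 3.14 cpm in Koshihikari, 3.17, 3.68 and 2.07 cpm in NIL-Prl5ST-1, 7.28, 6.81 and 8.14 cpm in NIL-Pbl6ST-1 and 5.72, 4.57 and 4.55 cpm in NIL-Prl5ST-1 + Pbl6ST-1. NIL-Pbl6ST-1 stood above every other line without overlap. The difference from Koshihikari was 1.04 on the log2 scale, or 2.06-fold (SE 0.148, edgeR adjusted p = 0.0013), and it passed under all alternatives run. In the line with both segments it was 0.46 (edgeR adjusted p = 0.266). Against NIL-Prl5ST-1 that line was higher by 0.74 (edgeR adjusted p = 0.0193), a call lost without NIL-Prl5ST-1 replicate 3 (0.105) or without replicate 1 of the line with both segments (0.0906).

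The first transcript of Os05t0560900 (similar to gibberellin 2-beta-dioxygenase) had 61.9 ± 8.19, 60.3 ± 3.82, 69.3 ± 1.61 and 47.5 ± 6.25 cpm in the 4 lines (SD, n = 3). It fell by 0.54 between NIL-Pbl6ST-1 and the line with both segments (SE 0.0891, edgeR adjusted p = 0.00578) and differed from NIL-Prl5ST-1 by −0.34 (edgeR adjusted p = 0.0293). The latter call was lost without NIL-Prl5ST-1 replicate 1 or without replicate 1 or 3 of the line with both segments (edgeR adjusted p 0.0752 to 0.135). Os05t0208550, with the same description, had 1.85 ± 0.304, 1.35 ± 0.259, 1.80 ± 0.400 and 2.01 ± 0.106 cpm. Os01t0332200 and Os05t0514600 had 18 and 2 reads in the whole series and were not tested. No GA 2-oxidase, member or not, passed the adjusted threshold in NIL-Prl5ST-1 against Koshihikari.

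CYP714B1 and CYP714B2, P450s that hydroxylate early GAs, had 10 and 106 reads in all. CYP714B2 stood at 0.352 ± 0.131, 0.516 ± 0.149, 0.335 ± 0.0439 and 0.323 ± 0.105 cpm in the 4 lines. The receptor GID1 had 215 ± 19.3, 252 ± 17.8, 250 ± 20.4 and 231 ± 11.8 cpm, and the DELLA repressor SLR1 had 143 ± 13.1, 129 ± 14.2, 146 ± 10.5 and 143 ± 16.1 cpm. Neither differed between any NIL and Koshihikari at an unadjusted P of 0.05. Os02t0580300, described as a 14-3-3 protein, had 111 ± 4.88, 112 ± 11, 129 ± 6.76 and 119 ± 5.33 cpm for its first transcript.

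The transcripts whose level over the 12 libraries was most like that of GA2ox6 were described, among 19982 transcripts with a mean of at least 5 cpm, by Pearson's r of the log2 cpm. The closest was Os04t0598300 (FLORICAULA/LEAFY-like, r = 0.957), which had 128 ± 10.1, 113 ± 22.8, 168 ± 5.61 and 143 ± 3.49 cpm in the 4 lines. It was followed by Os01t0837900 (similar to protein kinase AFC1, r = 0.951) and Os02t0101400 (a GDSL lipase, r = 0.944). Like GA2ox6, all 3 had their highest value within Koshihikari and within NIL-Prl5ST-1 in replicate 2, the libraries that stood apart.

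GA3ox1, GA2ox1 and EUI1 are located on the chromosome of Prl5, 973, 1086 and 372 loci from it in the order of locus numbers. Among the tested transcripts of the 20 loci on each side, the number that passed the adjusted threshold in NIL-Prl5ST-1 was 1 of 44 around GA3ox1, 0 of 36 around GA2ox1 and 1 of 41 around EUI1, beside 2.97% of chromosome 5 (edgeR). In NIL-Prl5ST-1 + Pbl6ST-1 it was 1 of 44 (2.27%), 4 of 36 (11.1%) and 5 of 41 (12.2%), beside 5.15%. Of these, 1, 3 and 4 were lower. Whether these members are within donor DNA was not tested.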

How the data were processed

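Per the labels, libraries were made from total RNA of young panicles, and the submitters' processing notes list bcl2fastq, Bowtie and the build IRGSP-1.0, without roles or versions. The values, deposited as read counts without normalisation for each transcript and library, had totals of 16041196 to 31760529. The counting tool, annotation release, strand and treatment of multi-mapped reads are not given in the sources used here, so reads of related genes could be shared or lost. Lines were taken from the labels. Members, lists and comparisons were chosen with earlier results of these data known. No sequence or coordinate is given.

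Transcripts were kept by filterByExpr over all 12 libraries (minimum count 10, minimum total 15), normalised by TMM and tested with the quasi-likelihood test of edgeR 4.0.16 (R 4.3.3) on the 6 libraries of each comparison, or on 12 for the interaction, two-sided, with Benjamini-Hochberg adjustment over 31643 transcripts and a threshold of 0.05. Standard errors were derived from the fold change and its F statistic. The cpm values use the TMM effective library size, and a prior count of 2 was added for log2 cpm. Single values were also compared by exact two-sided permutation tests. Intervals of fold changes come from the fits and include the spread between libraries, whereas floors cover counting error only. The named genes were all members, the pathway list and the 3 transcripts nearest to the member whose line means ranged widest. Alternatives were DESeq2 1.42.0 (size factors or Wald test), no filter, one fit of all 12 libraries, a replicate block, counts summed to loci and leaving out libraries. Replicate pairs differed by more than counting noise, and no library was merged. Over 18 pairs of same-numbered libraries of different lines, deviations from the line means had a median r of 0.00497 (−0.453 to 0.541), with 6 above 0.1. The median was −0.0104 over 36 pairs of different numbers, with 12 above 0.1. Such medians cannot exclude that the numbers pair some samples, and the replicate block is among the alternatives.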

Additional observations from a re-analysis of the deposited data

How the results depend on the processing

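Of 474 values of members under alternatives, 437 kept their direction and side of the threshold, 13 passed it newly and 24 changed sign. Values for which the DESeq2 Wald test gave no adjusted p were counted as not passing, so their side was fixed in advance. The sizes that changed sign were at most 0.19 on the log2 scale. The number of members called was 0 in each comparison as reported. In NIL-Prl5ST-1 against Koshihikari it was 1, KAO, with the DESeq2 Wald test, with no filter, with all 12 libraries in one fit and with both libraries that stood apart left out, and 0 to 1 leaving out single libraries. It was 1, KAO again, in the interaction with the DESeq2 Wald test and without both libraries, and 0 to 1 leaving out single ones. Leaving out single libraries gave 0 to 2 in NIL-Pbl6ST-1 against Koshihikari (2 without Koshihikari replicate 2) and 0 to 1 in the line with both segments against NIL-Prl5ST-1. The cause of these differences was not tested.

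In NIL-Prl5ST-1 against Koshihikari, GA2ox3 was −0.0047 with no filter, −0.0031 with all 12 libraries, −0.0081 with counts summed to loci and −0.0054 without both libraries, and EUI1 was 0.19 without both. Leaving out single libraries, GA2ox3 ranged from −0.063 to 0.11 and EUI1 from −0.26 to 0.10 there, GA3ox2/D18 from −0.058 to 0.14 in the line with both segments against Koshihikari, GA2ox3 from −0.097 to 0.075 and KAO from −0.016 to 0.15 in that line against NIL-Pbl6ST-1, and GA2ox3 from −0.095 to 0.079 and GA2ox6 from −0.19 to 0.68 in the interaction.

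With the replicate block no member was called, and the adjusted p of KAO in NIL-Prl5ST-1 was 0.242 (edgeR). The block moved the count over all transcripts from 235 to 69 in that comparison, from 2686 to 1750 in NIL-Pbl6ST-1, from 685 to 1292 in the line with both segments and from 1243 to 142 in the interaction. Leaving out single libraries, the count ranged from 63 to 6574, from 1067 to 7326 and from 270 to 837 in the 3 NILs against Koshihikari in the same order, from 95 to 750 against NIL-Pbl6ST-1 (246 as reported), from 3883 to 11158 against NIL-Prl5ST-1 (8021 as reported) and from 7 to 7579 in the interaction. Counts under the other settings that moved by more than 1.5 times were, for NIL-Prl5ST-1, 2018 with DESeq2, 1796 with no filter, 3635 with all 12 libraries and 11646 without both libraries, for the line with both segments 1066 with all 12 libraries against Koshihikari, and against NIL-Pbl6ST-1 574 with DESeq2, 982 with no filter, 104 with all 12 libraries and 137 for loci. For the interaction they were 3644 with DESeq2, 2877 with no filter, 781 for loci and 10143 without both libraries. Depth limits EUI1 and GA3ox2/D18 most, and GA3ox1 could not be tested.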
